A study of Rattus with 9 samples.

Results

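Expression of 10 genes of the unfolded protein response was followed in single cells of rat bile duct after liver transplantation (LT): Hspa5, Hsp90b1, Pdia4, Sdf2l1, Dnajb9, Herpud1, Xbp1, Atf4, Ddit3 and Trib3. The genes were selected by symbol, each symbol matched 1 feature, and together they are 10 of the 23999 features of the deposited matrices. All 10 were detected in the 139907 cells kept, from 3459 unique molecular identifiers (UMIs, the counted RNA molecules) for Trib3 to 653578 for Hspa5. Their Ensembl identifiers are ENSRNOG00000018294 for Hspa5, ENSRNOG00000026963 for Hsp90b1, ENSRNOG00000006228 for Pdia4, ENSRNOG00000001859 for Sdf2l1, ENSRNOG00000004006 for Dnajb9, ENSRNOG00000018796 for Herpud1, ENSRNOG00000010298 for Xbp1, ENSRNOG00000017801 for Atf4, ENSRNOG00000006789 for Ddit3 and ENSRNOG00000007319 for Trib3.

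The unfolded protein response keeps the folding capacity of the endoplasmic reticulum (ER) matched to the load of newly made secretory and membrane protein. The sensors Ire1 (Ern1), Perk (Eif2ak3) and Atf6 sit in the ER membrane: Ire1 splices the Xbp1 mRNA, Perk phosphorylates eIF2 alpha and so favours translation of Atf4, and Atf6 is cleaved to a transcription factor. Their targets include chaperones and folding enzymes, parts of ER-associated degradation, and, downstream of Atf4, the factor Ddit3 (CHOP) and the pseudokinase Trib3. Atf4 also answers to amino acid shortage and other stresses that do not involve the ER. Plasma cells and goblet cells secrete large amounts of protein and are known for a large ER. Counts per gene do not separate spliced from unspliced Xbp1 mRNA, and they do not report translation.

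The samples were 3 sham samples (sham 1 to 3), 3 samples of rats that received a liver graft with ischemic injury (ctrl, taken at day 1, 3 or 7 after LT) and 3 samples at the same days from rats in which the splenic and gastroduodenal arteries were also ligated to raise hepatic arterial flow (treat). The GEO labels give no strain, age or sex and do not describe the sham operation. Nothing in them ties libraries to individual rats, so p-values measure the spread between these samples, which may in part be technical. Cells were released with collagenases and dispase, passed through red cell lysis and dead cell removal, and counted by 10x 3' sequencing. Each day and arm is thus 1 sample, and the ctrl and treat groups of 3 hold the differences between days. Treat day 3 rests on its libraries 2 and 3, and library 1 was not analysed here.

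Total UMIs per sample ran from 21270647 (sham 1) to 290590249 (treat day 1), and cells kept from 2293 (sham 1) to 31828 (ctrl day 7). Libraries 2 and 3 of ctrl day 3 kept 413 and 323 cells, because a limit on hemoglobin reads removed 2472 of 2923 and 3961 of 4312 barcodes. Barcodes without cells in sham 2 and sham 3 held RNA of pancreatic acinar cells (Prss1 at 7289 and 9151 counts scaled to library size as CPM, against 313 in sham 1). Barcodes shared between libraries of a sample were at most 0.336% of the smaller library, and between samples at most 1.24%. Of 33 clusters, 26 were assigned to a cell type from marker genes, written below as BEC-like (biliary epithelial cells), EC-like (endothelial cells), VSMC-like (vascular smooth muscle cells) and so on. The 10 genes and their pathway were kept out of the clustering.

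To compare cell types, the median CPM over samples with at least 20 cells of a type was used. Plasma-like cells, present in number only at day 7 (207 cells in ctrl, 363 in treat), had the highest levels of 4 genes. Hsp90b1, the ER member of the Hsp90 family, stood at 3754 and 3971 CPM in the plasma-like cells of the day 7 samples, against medians of 852 in goblet-like, 822 in fibroblast-like and 62.7 in neutrophil-like cells. Sdf2l1, a cofactor of ER chaperone complexes, stood at 1026 and 1115 CPM in plasma-like cells, and its next highest medians were 248 in mast-like, 214 in macrophage-like and 185 in dendritic-like cells. Both ranges in plasma-like cells lay above those of every other type.

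Pdia4, a protein disulfide isomerase, also peaked in plasma-like cells, at 598 and 698 CPM, followed by fibroblast-like cells with a median of 235 (172 to 356, 9 samples). The plasma-like median was 2.76 times that of fibroblast-like cells, and 114 times that of neutrophil-like cells. Herpud1, a ubiquitin-domain protein of ER-associated degradation, was also highest in plasma-like cells, with 534 CPM in plasma-like, 392 in goblet-like and 332 in dendritic-like cells. Its lowest median was 96.3 in EC-like cells.

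Xbp1 and Hspa5 had their highest medians in goblet-like cells, which came from sham 3 and the day 1 samples only. Xbp1 ranged from 140 to 150 CPM over these 3 samples (6, 20 and 40 UMIs), against 118 and 121 in plasma-like cells, and no sample held both types. BEC-like and tuft-like cells followed, with medians of 59.0 (39.2 to 162) and 58.1 (41.5 to 87.0), while macrophage-like, NK&T-like and B-like cells had 12.9, 8.04 and 4.39. BEC-like cells held a median of 45% of all Xbp1 UMIs of a sample (12.0% to 60.5%). Hspa5, the ER chaperone BiP, varied less, from a median of 326 CPM in tuft-like to 1386 in goblet-like cells. In treat day 1, the only sample with both goblet-like and mast-like cells, it was higher in mast-like cells (1499 against 1386).

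The factors acting downstream of Perk had another order. Ddit3 was highest in neutrophil-like cells, with a median of 1282 CPM (445 to 1938, 8 samples), and next in B-like cells, with 619 (355 to 973). Neutrophil-like cells exceeded B-like cells in 6 of the 7 samples that held both. Trib3 followed Ddit3 at the top, with 30.7 CPM in neutrophil-like and 9.74 in NK&T-like cells, higher in the former in 7 of 8 samples. Atf4 was highest in mast-like (1277 CPM), B-like (1099) and goblet-like (1064) cells, and lowest in plasma-like (414) and macrophage-like cells (415). Dnajb9, an ER cochaperone of the J-protein family, was highest in B-like (255) and plasma-like (235) cells and lowest in macrophage-like cells (71.2).

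Most neighbours in these orders overlapped in range. The exceptions were the first place of plasma-like cells for Hsp90b1, Sdf2l1, Pdia4 and Herpud1, and goblet-like above plasma-like cells for Xbp1. For Xbp1 the goblet-like range (140 to 150 CPM) still lay inside that of BEC-like cells (39.2 to 162). Further exceptions were dendritic-like above NK&T-like cells for Sdf2l1, NK&T-like above B-like cells for Pdia4 and tuft-like above neutrophil-like cells for Hsp90b1. The low end is uncertain. In neutrophil-like cells, RNA from barcodes without cells could account for up to 90.9% of the Pdia4 UMIs, 52.8% of the Sdf2l1 UMIs and 35.6% of the Hsp90b1 UMIs, against at most 1.24%, 6.55% and 1.57% in BEC-like cells.

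**Figure D1:**
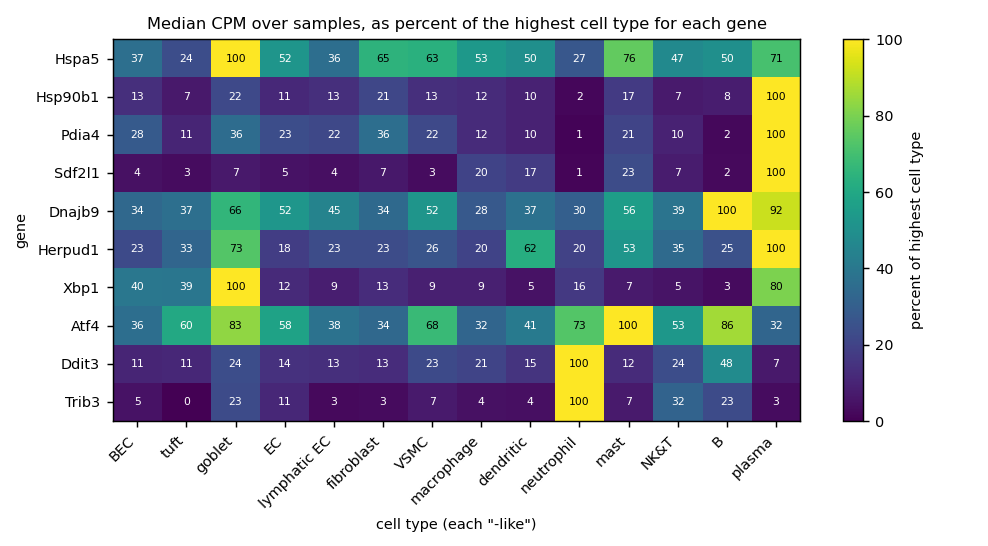
Median CPM of each gene over samples in 14 cell types, as a percent of the type with the highest median (rows are genes, columns are cell types, colour and number give the percent). Hsp90b1, Pdia4, Sdf2l1 and Herpud1 peak in plasma-like cells, Ddit3 and Trib3 in neutrophil-like cells, and Xbp1 in goblet-like cells.

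To ask how the genes differed between transplanted and sham bile ducts, UMIs were summed over all cells of a sample and tested with edgeR's quasi-likelihood test, with p-values adjusted by the Benjamini-Hochberg method over all genes. Levels below are CPM after TMM scaling. Between ctrl and sham, 2 of the 10 genes passed an adjusted p of 0.05, both higher, against 8.54% of all 15969 genes tested. Sdf2l1 stood at 38.5, 68.2 and 49.3 CPM in the sham samples and at 147, 174 and 148 in ctrl at days 1, 3 and 7, a log2 fold change of 1.59 ± 0.30 (SE, adjusted p = 0.0236). Trib3 stood at 2.26, 1.22 and 1.21 in sham and at 6.57, 5.47 and 6.04 in ctrl, a log2 fold change of 1.99 ± 0.38 (adjusted p = 0.0253). The groups did not overlap for these 2 genes, which was the case for 34.0% of all genes.

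The other 8 genes overlapped between ctrl and sham, with log2 fold changes from -0.17 to 0.24. Without sham 2, sham 3 or ctrl day 3 neither gene passed (adjusted p of 0.0744, 0.104 and 0.0801 for Sdf2l1, 0.0988, 0.107 and 0.0727 for Trib3), and without ctrl day 7 Trib3 did not (adjusted p = 0.0647). Neutrophil-like cells, which carry the most Trib3, numbered 71, 10 and 38 in the sham samples and 2337 to 3372 in ctrl. A reweighting gave equal shares to the 7 cell types with at least 20 cells in every sample, which leaves neutrophil-like cells out. The log2 fold changes were then 1.12 for Sdf2l1 (edgeR adjusted p = 0.0825) and 0.77 for Trib3 (edgeR adjusted p = 0.304).

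Between treat and sham, none of the 10 genes passed in the sum of all cells, where 0% of all genes did (3725 at an unadjusted p under 0.05). Sdf2l1 stood at 230, 123 and 136 CPM in treat at days 1, 3 and 7, all above the sham samples (log2 fold change 1.65, adjusted p = 0.0574), and Trib3 at 3.15, 6.90 and 3.86 (1.61, adjusted p = 0.0809). Between treat and ctrl, none of the 10 and 0% of all genes passed (542 at an unadjusted p under 0.05), and the log2 fold changes of the 10 genes lay between -0.38 and 0.37.

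In 11 cell types with enough cells, 106 tests of the 10 genes were made in each comparison. Of these, 2 passed between ctrl and sham, 1 between treat and sham and 0 between treat and ctrl, against 2.14%, 0.942% and 0.000960% of all tests of all genes in the same cell types. At an unadjusted p under 0.05 the counts were 29, 17 and 5. All ctrl samples lay above all sham samples in 19 of the 106 tests and below them in 20 (16.3% and 13.5% over all genes), and all treat samples above in 16 and below in 13 (13.5% and 11.0%).

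**Figure D2:**
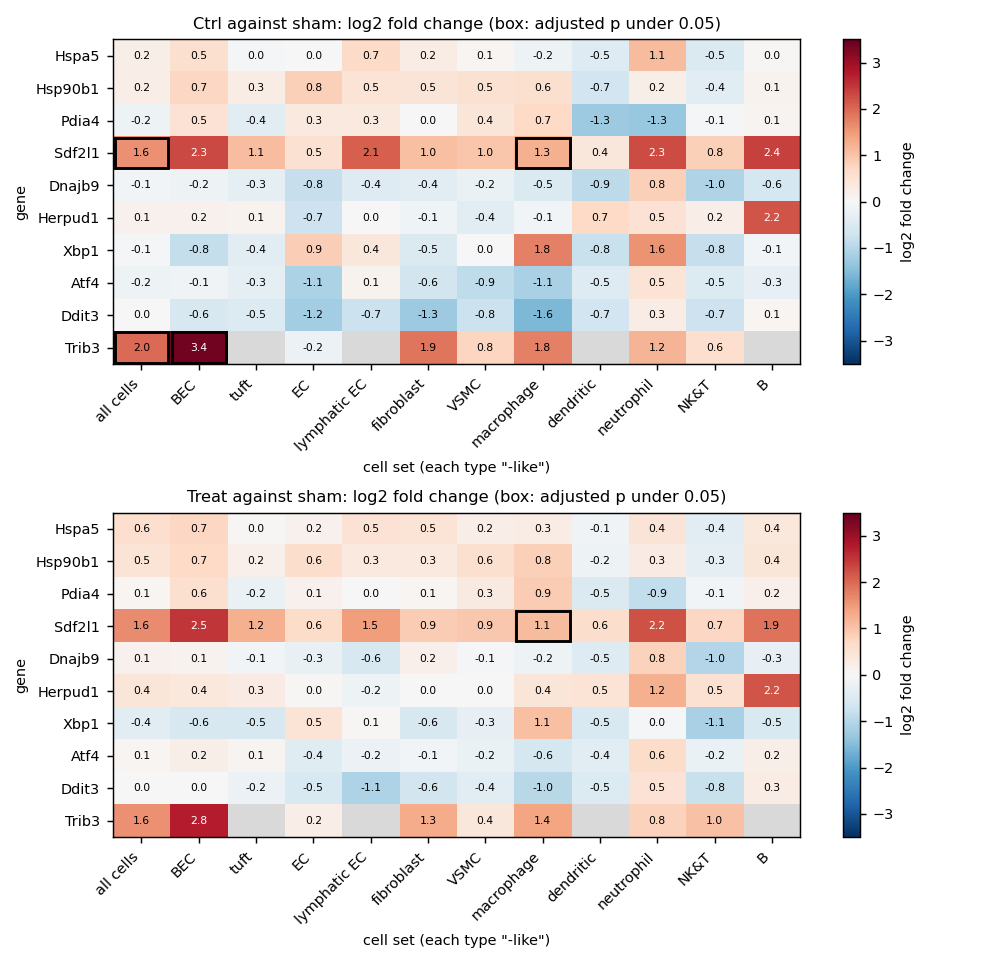
Log2 fold change of each gene (rows) in all cells and 11 cell types (columns), ctrl against sham above and treat against sham below; boxes mark an adjusted p under 0.05 and grey marks genes too low to test. The Sdf2l1 row is above 0 in every column of both panels, and Ddit3 is at its lowest, -1.56, in macrophage-like cells of ctrl.

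With the main settings Sdf2l1 had a positive log2 fold change in 11 of 11 cell types in both ctrl (0.39 to 2.40) and treat (0.61 to 2.49). The groups did not overlap in 6 types in ctrl and 6 in treat, with BEC-like, macrophage-like and neutrophil-like cells in both sets. In neutrophil-like cells the sham side was sham 1 and sham 3 (71 and 38 cells), and sham 3 held no Sdf2l1. RNA from barcodes without cells could account for up to 52.8% of the Sdf2l1 UMIs there. The highest value in ctrl came from B-like cells, where the sham samples with enough cells (39 and 40 cells) stood at 12.4 and 0 CPM. It passed the test in macrophage-like cells. There it stood at 166, 113 and 94.3 CPM in sham, 330, 302 and 258 in ctrl and 333, 260.5 and 209 in treat. The log2 fold change was 1.25 ± 0.26 in ctrl (adjusted p = 0.0190) and 1.10 ± 0.26 in treat (adjusted p = 0.0338), in a cell type where 12.2% and 7.62% of all genes passed. Every transplanted sample was above every sham sample.

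Both macrophage calls were lost in several settings. With libraries in place of samples, Sdf2l1 had an adjusted p of 0.0880 in ctrl and of 0.0687 in treat. Without sham 2 or sham 3 the adjusted p of Sdf2l1 was 0.0831 or 0.0851 in ctrl and 0.120 or 0.127 in treat, without ctrl day 3 it was 0.0527, and without treat day 1 or day 3 it was 0.0736 or 0.0655. Scaling by library size alone gave an adjusted p of 0.0852 in treat. The macrophage-like class joins 6 clusters that the samples fill unequally, so Sdf2l1 was also read within clusters. Most sham cells of the macrophage-like class fell in a pair of clusters led by Cxcl13, Mmp12 and the complement genes C1qa to C1qc. In the smaller one (2042 cells), plain CPM were 155, 112 and 113 in sham, 349, 398 and 405 in ctrl and 318, 349 and 287 in treat. In the larger one (3557 cells) they were 255, 289 and 172 in sham, 380, 320.5 and 314.5 in ctrl and 347, 334 and 273 in treat. Sham and ctrl did not overlap in either cluster, while sham 2 exceeded treat day 7 in the larger one. The other 4 clusters held at most 78 cells of a sham sample. In a pair of them sham 1 (159 and 157 CPM) exceeded the day 7 samples (144 and 145 in one, 152 and 94.3 in the other), and in the remaining pair the sham samples with enough cells lay below all transplanted samples. A further cluster stayed unnamed because it carried acinar RNA beside 11 macrophage markers. It held 993 cells of sham 2 and 889 of sham 3, against 433 and 321 cells of these samples in the macrophage-like class. Sdf2l1 there was at 108 and 93.1 plain CPM in sham 2 and sham 3. At ctrl days 3 and 7 it was at 317 and 155 (64 and 45 cells), and at treat day 1 at 271 (60 cells).

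In BEC-like cells Sdf2l1 had a wider difference with a wider spread. It stood at 26.3, 21.1 and 19.1 CPM in sham and fell over the days from 174 to 107 and 43.9 in ctrl and from 225 to 99.5 and 44.4 in treat. All transplanted samples exceeded all sham samples, but the tests over the 3 days did not pass (log2 fold change 2.31 ± 0.62, adjusted p = 0.0754 in ctrl, 2.49 ± 0.62, adjusted p = 0.138 in treat).

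The 3 BEC-like clusters are filled unequally, and the day 1 values were high in each. In the largest, marked by all 12 BEC markers, Sdf2l1 was at 44.7, 29.7 and 28.0 plain CPM in sham, 232 at ctrl day 1 and 263 at treat day 1, and at 43.3 and 45.9 at day 7 of ctrl and treat, so that ctrl day 7 lay within the sham range and treat day 7 just above it. In the cluster led by Reg3b and Reg3g it was at 43.3 and 29.3 in sham 2 and sham 3, 121 and 75.8 at days 1 and 7 of ctrl and 160 and 83.0 at those days of treat. The cluster led by Scgb1c1 held 1135 of the 1316 BEC-like cells of sham 2 and 1396 of the 1538 of sham 3. There Sdf2l1 was at 8.17, 20.6 and 19.1 in sham and 46.6 at ctrl day 3 (27 cells). In treat it was at 68.2, 20.7 and 44.9 at days 1, 3 and 7 (100, 28 and 21 cells), so that treat day 3 was level with sham 2. Single libraries of day 1 lay between 135 and 316 in BEC-like cells, and sham libraries between 18.8 and 25.6.

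Hspa5 and Hsp90b1, the main soluble chaperones of the ER, did not pass over the 3 days in BEC-like cells. Hspa5 stood at 407, 441 and 396 CPM in sham, 752, 646 and 422 in ctrl and 823, 770 and 469 in treat. Hsp90b1 stood at 400, 448 and 458 in sham, 890, 811 and 458 in ctrl and 947, 706 and 479 in treat. Both were highest at day 1 and close to the sham range at day 7 in this class. Over the 3 days the log2 fold changes of Hspa5 were 0.55 (edgeR adjusted p = 0.307) in ctrl and 0.73 (edgeR adjusted p = 0.309) in treat. Those of Hsp90b1 were 0.72 (edgeR adjusted p = 0.231) and 0.71 (edgeR adjusted p = 0.363). A cluster of 4724 cells stayed unnamed and outside this class, though 9 of 12 BEC markers were detected in it. Hspa5 there was at 482, 528 and 477 plain CPM in sham, 531, 371 and 294 in ctrl and 502, 422 and 364 in treat. Hsp90b1 there was at 318, 327 and 362 in sham, 383, 315 and 239 in ctrl and 400, 195 and 248 in treat.

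In fibroblast-like cells the day 1 samples also stood highest. Sdf2l1 was at 61.2, 88.7 and 61.2 CPM in sham, 260, 113 and 67.4 in ctrl and 257, 72.0 and 62.1 in treat, and Hspa5 at 778, 913 and 769 in sham against 1404 and 1723 at day 1. The day 1 samples lay apart from sham, and the day 7 samples did not exceed it. Most day 1 fibroblast-like cells of ctrl (351) and treat (4441) fell in a cluster that held 22 cells of sham 2 and under 20 of each other sham sample. In it Sdf2l1 was at 165 plain CPM in sham 2, 216 at ctrl day 1 and 247 at treat day 1. Hspa5 was at 950, 1169 and 1687.5 in the same samples. The comparison was also read in the cluster with the most sham cells. Sdf2l1 there was at 68.4, 96.1 and 64.9 plain CPM in sham, 112 at ctrl day 1 (21 cells) and 227 at treat day 1 (149 cells). Hspa5 in that cluster was at 907, 992 and 819 plain CPM in sham, 599.7 at ctrl day 1 and 1501 at treat day 1, so that its ctrl day 1 value lay below sham there. Over the 3 days the fibroblast-like Sdf2l1 fold changes were 1.05 (adjusted p = 0.361) and 0.88 (adjusted p = 0.630), and the latter was -0.08 without treat day 1.

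**Figure D3:**
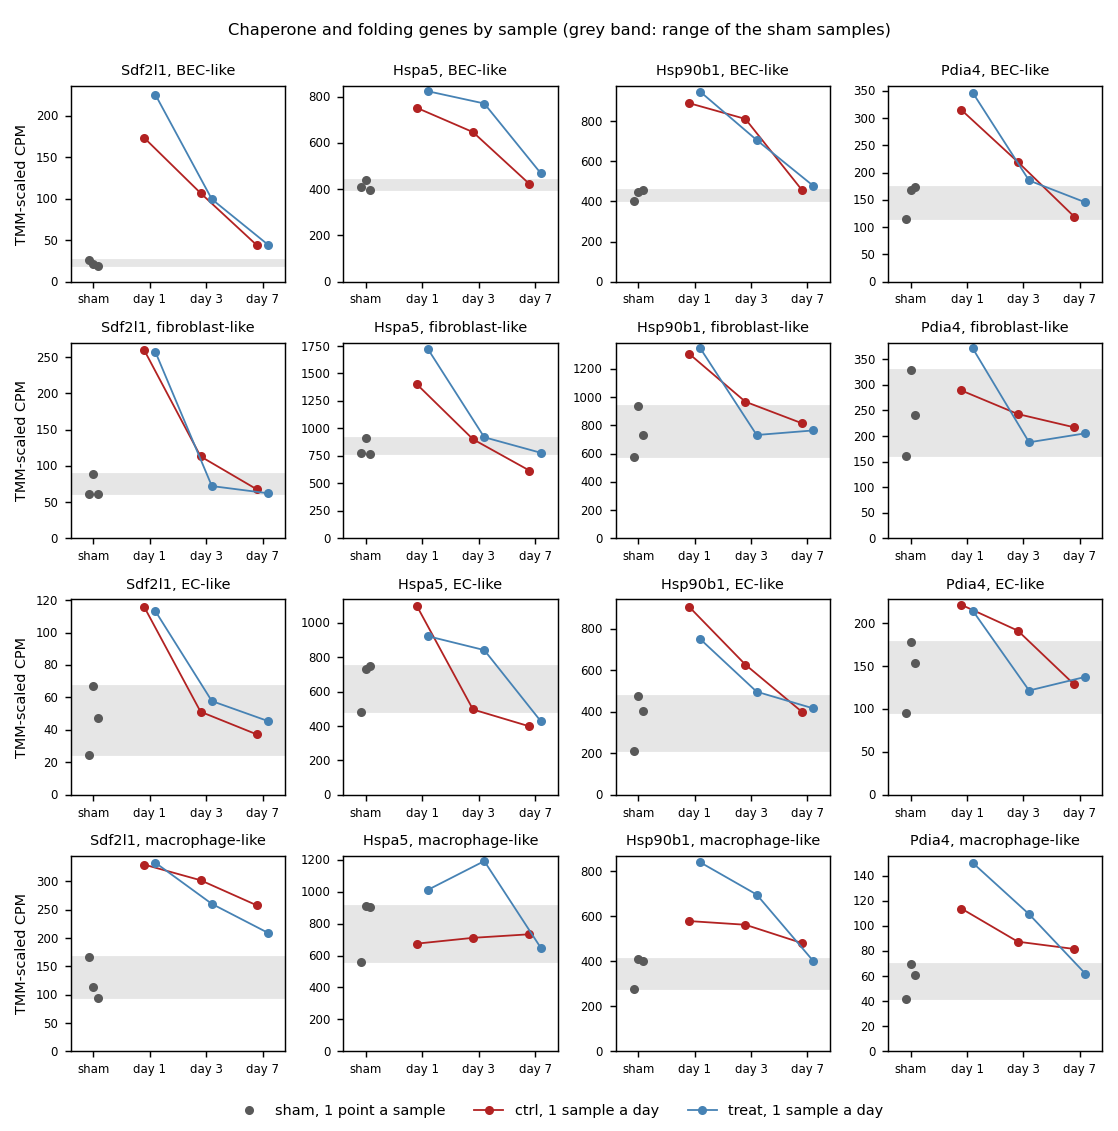
TMM-scaled CPM of Sdf2l1, Hspa5, Hsp90b1 and Pdia4 (columns) in BEC-like, fibroblast-like, EC-like and macrophage-like cells (rows); grey points are the 3 sham samples and the grey band their range, red and blue points are the ctrl and treat samples at days 1, 3 and 7. In BEC-like cells Sdf2l1 falls from 174 and 225 at day 1 to 43.9 and 44.4 at day 7, against 19.1 to 26.3 in sham, though ctrl day 7 lay within the sham range in the largest BEC-like cluster.

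Across cell types, day 1 held the highest of the 3 values for Pdia4 in 8 of 10 types in ctrl and 8 of 11 in treat, for Hsp90b1 in 6 and 8, for Hspa5 in 6 and 7 and for Sdf2l1 in 6 and 6. Pdia4 in BEC-like cells was at 114, 169 and 173 CPM in sham, 315, 220 and 119 in ctrl and 347, 186 and 145 in treat. In macrophage-like cells it was at 42.2, 69.7 and 60.8 in sham and at 114 and 150 at day 1. Neither difference passed over the 3 days. In the larger macrophage-like cluster led by Cxcl13 the day 1 values (71.2 and 80.9 plain CPM) lay inside the sham range (55.1 to 105.6). In the smaller one led by Mmp12 and Cxcl13 they lay above it (81.2 and 131 against at most 69.9).

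Each day within an arm is 1 sample, so the tests of single days within an arm took libraries as replicates. Their p-values then measure the spread between libraries, which may be technical. On that footing, 17 of 107 tests of the 10 genes were higher and 5 lower at ctrl day 1, against 5.59% and 5.74% of the tests of all genes, and 13 higher and 4 lower at treat day 1 (3.30% and 3.06%). At day 3 the counts were 2 higher and 7 lower of 50 in ctrl (1.55% and 1.45%) and 3 higher and 0 lower of 107 in treat (1.99% and 1.47%). At day 7 they were 0 higher and 1 lower in ctrl (1.59% and 1.31%) and 0 in either direction in treat (0.989% and 0.809%).

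At day 1, with libraries as replicates, Sdf2l1 was called higher in 5 of 11 cell types in each arm, with a log2 fold change of 2.99 in ctrl and 3.2 in treat in BEC-like cells, and 2.64 and 2.45 in lymphatic EC-like cells. Hsp90b1 was called higher in 4 types in each arm, among them BEC-like cells (1.01 and 1.04), and Hspa5 in BEC-like (0.84 and 0.88) and fibroblast-like cells (0.93 and 1.09). Dendritic-like cells went the other way at ctrl day 1, with Hsp90b1 lower by edgeR at -1.39 and Pdia4 at -1.74, on 2 sham samples with enough cells. Ddit3 was called lower at day 1 in fibroblast-like (-0.91 and -1.15) and macrophage-like cells (-1.76 and -2.05) of ctrl and treat, and in lymphatic EC-like cells of treat (-1.52).

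Atf4 held its highest of the 3 days at day 1 in 8 of 10 types in ctrl and 1 of 11 in treat, and Ddit3 in 1 and 0. In macrophage-like cells Ddit3 was at 230, 540 and 619 CPM in sham, 99.0, 114 and 257 in ctrl and 98.3, 322 and 288 in treat. Atf4 was at 458, 911 and 955 in sham, 317, 289 and 461 in ctrl and 328, 764 and 430 in treat. Sham 1 was the lowest sham sample for both genes and overlapped the transplanted samples. Of its 465 macrophage-like cells, 303 fell in the larger cluster led by Cxcl13, where it was at 29.0 plain CPM for Ddit3 and 84.0 for Atf4. In the smaller cluster led by Mmp12 and Cxcl13 it was at 538 and 855, above all transplanted samples (at most 384 and 713). In the other clusters with enough sham 1 cells, Ddit3 at treat day 3 (328 and 367) and day 7 (302 and 297) exceeded sham 1 (236 and 245). In the second of these clusters ctrl day 7 (254) exceeded it too. The log2 fold changes in ctrl were -1.56 for Ddit3 (adjusted p = 0.0865) and -1.12 for Atf4 (adjusted p = 0.0704), and without sham 1 they were -1.86 and -1.36, which passed (adjusted p of 0.0496 and 0.0290).

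Ddit3 was below sham in ctrl in other types too. In fibroblast-like cells it was at 169, 240 and 294 CPM in sham and 105, 83.1 and 106 in ctrl (log2 fold change -1.27, adjusted p = 0.0632), and in EC-like cells at 226, 321 and 312 in sham and 141, 61.9 and 166 in ctrl (-1.21, adjusted p = 0.1). The groups did not overlap in either type. Ddit3 had a positive fold change in 2 of 11 types in ctrl and 3 of 11 in treat, and Atf4 in 2 and 4.

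The sham samples also carried more RNA of early response and heat shock genes, which rise when tissue is dissociated. The 11 listed genes summed to 10238 to 11963 CPM over all cells in sham and 6537 to 7818 after LT. In macrophage-like cells the sums were 6491 to 7830 in sham and 4396 to 6095 after LT, and no gene of the list was at 0 in them. In BEC-like cells the ranges overlapped (8253 to 9362 in sham, 5419 to 10573 after LT). Egr1, one of them, was lower in ctrl over all cells (1010 CPM in sham, 513 in ctrl, adjusted p = 0.0476), a call lost in 11 of 17 alternative settings. It was also lower in EC-like cells of ctrl (log2 fold change -1.82), and Fos was lower in NK&T-like cells of treat (-1.95), each call being lost in 5 of 19 settings. The part of this in the Ddit3 and Atf4 values was not tested.

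The ctrl and treat values were also compared day by day. In ctrl, day 3 held the lowest of the 3 days for Atf4 in 10 of 10 cell types, Ddit3 in 9, and Herpud1 and Dnajb9 in 8. In treat, day 3 held the highest for Atf4 in 10 of 11 types, for Ddit3 and Dnajb9 in 9 and for Herpud1 in 6. Treat day 3 exceeded ctrl day 3 in 10 of 10 types for all 4 genes, as did 6.60% of the 5076 genes tested in all 10 types, by a median log2 difference of 1.27 for Atf4, 1.16 for Ddit3, 1.01 for Herpud1 and 0.95 for Dnajb9. In the same order of genes, treat was higher in 5, 3, 6 and 6 of 11 types at day 1 and in 5, 5, 9 and 3 at day 7. For the other genes treat day 3 was higher in 8 (Hspa5), 6 (Pdia4), 4 (Hsp90b1 and Sdf2l1) and 3 (Xbp1) of 10 types and in 4 of 7 for Trib3. The summed dissociation and heat shock genes were also higher in treat than in ctrl at day 3 in EC-like (9924 against 4580 CPM), fibroblast-like (12414 against 7159), BEC-like (9064 against 5516), VSMC-like and tuft-like cells, and lower in macrophage-like (5832 against 6031), NK&T-like (3590 against 5119), dendritic-like, neutrophil-like and B-like cells. Their part in the difference was not tested.

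In fibroblast-like cells Atf4 was at 531, 533 and 609 CPM in sham, 450, 281 and 341 in ctrl and 454, 672 and 430 in treat. With libraries as replicates, the difference between the arms at day 3 was called for Atf4 in fibroblast-like cells (log2 fold change 1.55, edgeR adjusted p = 0.0024) and for Herpud1 in neutrophil-like cells (1.98, edgeR adjusted p = 0.0404), 2 of 50 tests where 0.397% of the tests of all genes passed. None of the 10 genes was called at day 1 or day 7, where 0.287% and 0.00199% of all tests passed. In single libraries Atf4 in fibroblast-like cells was at 289, 193 and 191 plain CPM in ctrl and 693 and 638 in treat at day 3. The arms did not overlap there. Each arm is 1 sample at day 3, ctrl day 3 is the sample that lost most cells of 2 libraries to the hemoglobin limit, and whether the difference follows the arm or the sample cannot be told apart.

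**Figure D4:**
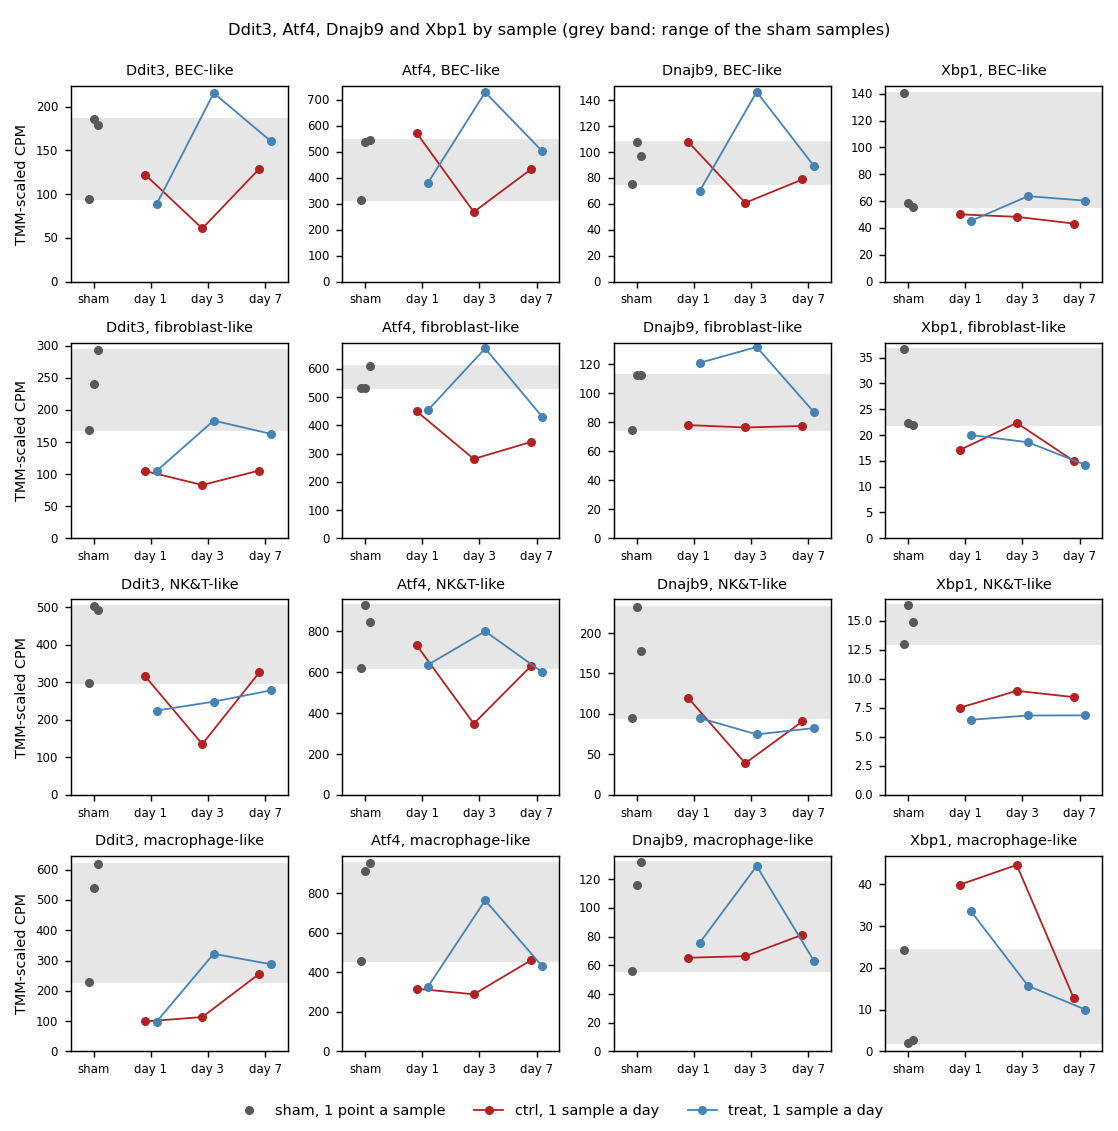
TMM-scaled CPM of Ddit3, Atf4, Dnajb9 and Xbp1 (columns) in BEC-like, fibroblast-like, NK&T-like and macrophage-like cells (rows); grey points and band are the 3 sham samples, red and blue points the ctrl and treat samples by day. Atf4 at day 3 is lower in ctrl than in treat in each row, for example 281 against 672 in fibroblast-like cells.

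Dnajb9 and Herpud1 did not pass in any cell type in the tests over the 3 days. Herpud1 in B-like cells passed in ctrl and treat without the low count filter, and in ctrl without ctrl day 3. Dnajb9 had a positive log2 fold change in 1 of 11 types in ctrl (lowest -1.04, in NK&T-like cells), and 3 of 11 in treat. In NK&T-like cells it was at 95.5, 232 and 178 CPM in sham, 120, 39.1 and 90.7 in ctrl and 95.0, 74.8 and 82.5 in treat. Herpud1 over all cells was at 117, 123 and 134 in sham, 125, 106 and 183 in ctrl and 137, 184 and 183 in treat, so that all treat samples were higher than all sham samples (log2 fold change 0.43, adjusted p = 0.284).

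Xbp1 passed the test over the 3 days in no cell type (lowest adjusted p by edgeR 0.123 in ctrl and 0.0884 in treat), and the sign of its fold change was not the same in all types. In BEC-like cells, its main source, it was at 141, 58.4 and 55.7 CPM in sham, 50.1, 48.3 and 43.3 in ctrl and 45.3, 63.7 and 60.3 in treat (log2 fold change -0.82, adjusted p = 0.206, and -0.57). All ctrl samples were below sham, and sham 1 was far above the other sham samples. In the largest BEC-like cluster sham was at 202, 126 and 95.6 plain CPM, and no transplanted sample exceeded 86.9. In the one led by Scgb1c1 sham was at 113, 59.3 and 58.9, against at most 56.8 in transplanted samples with enough cells. The ranges overlapped in the one led by Reg3b and Reg3g. They also overlapped in the unnamed cluster with 9 of 12 BEC markers, where Xbp1 was at 20.8 to 35.4 in sham and 24.2 to 32.7 after LT. In NK&T-like cells it was at 13, 16.3 and 14.8 in sham, 7.5, 8.95 and 8.41 in ctrl and 6.46, 6.83 and 6.84 in treat, every transplanted sample being lower (-0.82, adjusted p = 0.183, and -1.14, adjusted p = 0.0884).

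In EC-like cells the values after LT were above sham, with Xbp1 at 16.1, 12.8 and 11.5 CPM in sham, 27.7, 28.3 and 18.3 in ctrl and 16.6, 22.4 and 17.2 in treat (0.87, adjusted p = 0.123, and 0.48). In macrophage-like cells the sham samples themselves differed, at 24.3, 1.95 and 2.64, against 39.9, 44.6 and 12.7 in ctrl and 33.5, 15.7 and 10.0 in treat. The log2 fold change in ctrl was 1.77 (edgeR adjusted p = 0.198) and, without sham 1, 3.86 (edgeR adjusted p = 0.0354). In the smaller cluster led by Mmp12 and Cxcl13, sham was at 25.9, 2.74 and 3.05 plain CPM and ctrl at 8.12, 19.8 and 9.98. Sham 1 thus exceeded all ctrl samples there. In the larger cluster led by Cxcl13 sham (5.79, 0 and 13.2) and ctrl (8.55, 13.2 and 10.8) overlapped. RNA from barcodes without cells could account for up to 26.9% of Xbp1 UMIs in macrophage-like cells.

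Trib3, a pseudokinase induced by Atf4 and Ddit3, was called in BEC-like cells of ctrl. It rests on few molecules, with 0.171 ± 0.148 CPM in sham (SD, n = 3) and 3.06, 2.83 and 1.64 in ctrl, a log2 fold change of 3.39 ± 0.55 (adjusted p = 0.0170), where 2.78% of all genes passed. Treat samples were at 1.28, 2.13 and 1.41 (2.75, adjusted p = 0.0829). All transplanted samples were above all sham samples, sham 1 had none, and without sham 2, sham 3, ctrl day 1 or ctrl day 3 the adjusted p in ctrl was 0.106, 0.108, 0.0592 or 0.0575. Libraries of ctrl day 1 differed widely, at 0.393, 6.25 and 2.01 plain CPM. Trib3 could be tested in 7 cell types and had a positive fold change in 6 of them in ctrl and 7 in treat.

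The wider pathway was read from listed genes that are not among the 10. Over all cells in ctrl, 1 of 24 ER chaperones and folding enzymes was higher, 2 of 16 ER-associated degradation genes, and 2 of 24 integrated stress response targets, against the 8.54% of all genes given above, and 1 of 7 sensors and factors was lower. The chaperone gene was Ero1a, an ER oxidase (25.8 ± 1.18 CPM in sham, 155 ± 140 in ctrl, SD, n = 3, log2 fold change 2.59 ± 0.58, adjusted p = 0.0360). The others were Edem2 (0.72) and Ube2j1 (0.93), which act in degradation of misfolded proteins, Cebpb (0.95), a transcription factor, Psat1 (1.38), an enzyme of serine synthesis, and Creb3l2, a membrane-bound factor, which fell by 0.99 on the log2 scale. Of 17 alternative settings, the call was lost in 6 for Ero1a, 7 for Edem2 and Creb3l2, 8 for Ube2j1 and Psat1 and 10 for Cebpb. Ero1a was among the leading genes of a neutrophil-like cluster, a cell type that numbered at most 71 cells in a sham sample and at least 2337 in ctrl. With equal shares of the 7 cell types present in every sample, neutrophil-like cells left out, its log2 fold change was 1.18 (edgeR adjusted p = 0.146).

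Macrophage-like cells held the most calls, in a cell type where 12.2% of all genes passed in ctrl and 7.62% in treat. That class joins clusters that the samples fill unequally, and the listed genes were not read within them. In ctrl 9 of 24 chaperones and folding enzymes were higher and 0 lower, with a median log2 fold change of 0.77 against 0.00 over all genes tested, and in treat 5 of 24 were higher, with a median of 0.82. Creld2, an ER stress-induced secreted factor, was at 16.2 ± 3.96 CPM in sham and 65.1 ± 13.5 in ctrl (log2 fold change 2.02 in ctrl, adjusted p = 0.0125, and 2.29 in treat, adjusted p = 0.0101). Manf, another ER stress-induced secreted protein, went from 152 ± 4.57 to 373 ± 52.5 in ctrl (1.30) and 409 ± 133 in treat (1.43). Ppib (1.40), a prolyl isomerase, was called in ctrl and Txndc5 (1.24), a disulfide isomerase, in treat.

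Degradation and stress response genes were fewer in macrophage-like cells. Of 16 degradation genes 3 were higher in ctrl, Sec61b (1.54), Derl1 (0.92) and Derl2 (0.96), and in treat Sec61b (1.51) was higher and Edem3 (-1.74) lower. Sec61b belongs to the translocon that brings proteins into the ER, and the Derlins to the retrotranslocation machinery. Of 20 integrated stress response targets, Eif4ebp1 (1.65), a translation repressor, was higher and Atf3 (-1.49) lower in ctrl. In treat Eif4ebp1 (1.29) and Wars1 (1.67) were higher and Vldlr (-3.21) lower. Nfe2l2 (Nrf2), counted with the sensors, was lower in ctrl (-1.78), as were the heat shock genes Hspa1b (-1.33) and Hsph1 (-1.48), and Hspa1b was lower in treat (-1.22). Of 19 alternative settings, Creld2 and Manf lost their calls in 2 in either arm, while the losses among the other genes named in macrophage-like cells ran from 2 (Eif4ebp1, Ppib and Sec61b in ctrl) to 11 (Edem3 in treat).

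In BEC-like cells of ctrl no listed chaperone passed, 20 of 24 had a positive fold change, and the median was 0.44 against 0.01 over all genes. Of 21 integrated stress response targets 3 were higher, where 2.78% of all genes passed, namely Vldlr (1.98, adjusted p = 0.0155), Wars1 (1.63, adjusted p = 0.0440), the tryptophanyl-tRNA synthetase, and Slc7a11 (1.97, adjusted p = 0.0464), the cystine transporter. The call was lost in 3 of 19 alternative settings for Vldlr, 11 for Wars1 and 8 for Slc7a11. These genes were listed as targets of the integrated stress response, which acts through Atf4. Atf4 itself was at 312, 537 and 545 CPM in sham, 572, 268 and 432 in ctrl and 380, 728 and 501 in treat in these cells.

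The way the 10 genes varied together was described over 104 sums of 1 cell type in 1 sample (14 types), each gene centred within its type on the log2(CPM + 1) scale. These points share samples and libraries, so the values are a description with no test. Hsp90b1 and Pdia4 had the highest Pearson r, 0.800, followed by Ddit3 and Atf4 with 0.790, Hspa5 and Hsp90b1 with 0.652 and Atf4 and Dnajb9 with 0.646. Trib3 had its highest r with Sdf2l1 (0.437) and was at 0.039 with Atf4 and -0.253 with Ddit3. Atf4 was at 0.406 with Hspa5 and -0.062 with Hsp90b1, and the lowest of all pairs was Ddit3 and Sdf2l1, with -0.380. The highest r of Xbp1 with any of the other 9 genes was 0.122, with Pdia4.

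Among 15968 genes, those most like Hspa5 over the same sums were Hsp90b1 (r = 0.652), Tfrc (0.643), Alyref (0.603), Ddx39a (0.593) and Hsp90aa1 (0.575). Ddit3 was most like Ppp1r10 (0.824), Slc38a2 (0.813), Atf4 (0.790), Azin1 (0.788) and Ubb (0.769). For Xbp1 the highest values were lower, at 0.519 for Tsen34l1, 0.502 for Trappc4, 0.494 for Rrbp1 and 0.489 for Cebpd.

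**Figure D5:**
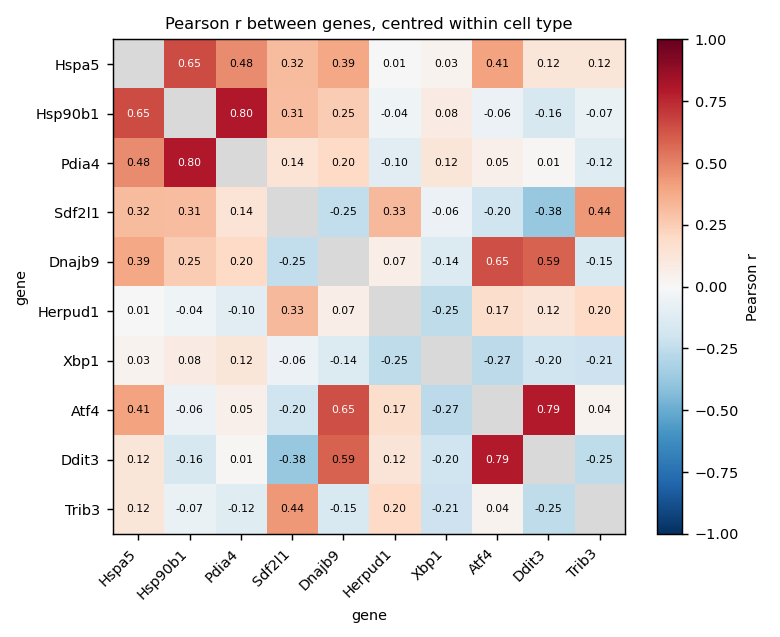
Pearson r between the 10 genes over 104 sums of 1 cell type in 1 sample, on the log2(CPM + 1) scale and centred within cell type; rows and columns are genes and colour gives r. Hsp90b1 and Pdia4 (0.800) and Ddit3 and Atf4 (0.790) have the highest values, and Ddit3 and Sdf2l1 (-0.380) the lowest.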

How the data were processed

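Single-cell suspensions of rat bile duct were sequenced by the submitters on the 10x 3' platform in 20 libraries of 9 samples. The authors deposited matrices of UMI counts per gene and barcode, which are not normalized and include barcodes without cells. The submitters' notes name Cell Ranger 5.0.1 and Seurat 3.2.0, the matrix headers name Cell Ranger 4, and the genome build is not given in the sources used here.

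There were 161207 barcodes with over 400 genes. Of these, 150284 had under 6000 genes and a share of UMIs under 25% from mitochondria and under 3% from hemoglobin genes. The 7.5% of cells with the highest simulated-doublet score in each library were removed (10377), which left 139907. Clustering used 2000 variable genes, 30 principal components and 15 neighbours (Leiden, resolution 0.9, scanpy 1.11.5) without the 10 genes and their pathway. Clusters were named from marker lists, by a rule settled after the clusters were seen, and 16194 cells stayed unnamed.

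Counts were summed per sample and cell type (at least 20 cells) and tested with edgeR 4.0.16 (TMM, quasi-likelihood, all 9 samples, group as the only term) in R 4.3.3, with Benjamini-Hochberg adjustment over all genes. With 3 samples against 3, an exact permutation test cannot go below 0.1 and is not quoted. Libraries of a sample were summed. DESeq2 1.42.0, other scalings and filters, libraries as samples and omission of each sample were tried as alternatives. On data simulated for the sum of all cells (15824 genes), edgeR recovered 61.9% of 4-fold and 7.00% of 2-fold changes with 1.47% of its calls false, against 17.5% for DESeq2.

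The 10 genes, the gene lists and the comparisons were chosen with earlier results of these data known. All 10 genes are named, with up to 3 called genes of each pathway list per comparison and cell set (smallest p), and the 5 genes most like Hspa5, Ddit3 and Xbp1, of which 1 is not reported here. Library 1 of treat day 3 was not analysed here.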

Additional observations from a re-analysis of the deposited data

Results flagged for a closer look

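Xbp1 and Hspa5 had fold changes of opposite sign in different cell types, with all 3 samples of an arm above all sham samples in one type and below them in the other. This was read within ctrl or within treat, not over both arms, and none of these fold changes passed the edgeR test. The differences between cell types were not tested. In ctrl, the log2 fold change of Xbp1 was 0.87 in EC-like cells and -0.82 in both BEC-like and NK&T-like cells. In treat, Xbp1 was at 0.48 in EC-like cells, -1.14 in NK&T-like cells and -0.55 in fibroblast-like cells. Hspa5 in treat was at 0.73 in BEC-like cells and -0.39 in NK&T-like cells. In the largest BEC-like cluster, though, Hspa5 at treat day 7 (510 plain CPM) lay within the sham range (470 to 591). In the clusters led by Scgb1c1 and by Reg3b and Reg3g, all treat samples exceeded the sham samples with enough cells. In the unnamed cluster with 9 of 12 BEC markers, treat (502, 422 and 364) did not lie above sham (482, 528 and 477). Counted over all 11 cell types, groups lay apart in both directions for other genes too. These were Hspa5, Hsp90b1 and Pdia4 in ctrl and Atf4 and Hsp90b1 in treat, which were not flagged.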

How the results depend on the processing

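Numbers of the 10 genes called moved with the settings. In the sum of all cells, 2 were called in ctrl and 0 to 2 when each sample was left out in turn. Equal shares of the cell types with enough cells in every sample gave 0. In treat the 0 became 2 by DESeq2 and 1 with each library as its own sample. Over the cell types, the 2 calls in ctrl became 5 with library size only, 4 without the low count filter, 7 by DESeq2, 5 with libraries as samples and 0 to 5 when a sample was left out. The 1 call in treat became 0 with library size only, 0 with only 2 groups fitted, 0 with libraries as samples, 4 without the filter, 5 by DESeq2 and 0 to 3 when a sample was left out. Between treat and ctrl, 1 was called without the filter (Xbp1 in neutrophil-like cells). Signs turned in some settings too, for 31 of 106 fold changes of the 10 genes over the cell types in ctrl and 43 of 106 in treat. Sdf2l1 in fibroblast-like cells of treat turned from 0.88 to -0.0772 without treat day 1 (edgeR adjusted p = 0.983), and was 1.22 at most, without treat day 7. Scaling by library size only moved the median of all genes to -0.37 in ctrl over all cells and -0.32 in macrophage-like cells. The ctrl and treat samples share days, but with the day as a replicate block 0 genes were called between treat and ctrl. Deviations of same-day samples correlated at 0.343, -0.092 and 0.581 over all cells. All 3 same-day correlations were over 0.1 in NK&T-like (0.344 to 0.465) and neutrophil-like cells (0.170 to 0.450) but not in the other cell types with 3 days, and the days were not taken as pairs. The cause of these shifts was not tested. Named pathway genes lost their calls in 186 of 594 alternatives.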
